A study of Sparus aurata with 53 samples.

Results

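Transcripts of 3 uncoupling proteins of the mitochondrion, ucp1, ucp2 and ucp3, were followed through a day in whole larvae of gilthead sea bream (Sparus aurata). They are measured by 3 of the 13,940 probes of a sea bream oligonucleotide microarray, and were chosen by their clone codes, C2_5902 for ucp1, C2_60770 for ucp2 and C2_22601 for ucp3. The larvae were 30 days post hatching, were reared at 19 °C with lights on for 12 h and off for 12 h, and were fed without restriction on live prey. They were taken every 3 h of zeitgeber time, which counts hours from lights on, so that 0 h to 12 h was the light period and 12 h to 24 h the dark period. RNA of 1 larva was hybridised to 1 array, which gave 53 larvae in 9 groups, 6 at each sampling time and 5 at 12 h. A further clone that the study describes as an uncoupling protein 2 was not matched to a probe by code and was not analysed here, so the ucp2 values belong to the single clone C2_60770. Sampling time was the only difference between the groups in the labels, and no larva was treated. The groups were not spread equally over the slides and scan days of the arrays, which are described below. Larvae of 1 group are separate animals from shared tanks, so the p-values measure the spread between these larvae over a single day. The tank of a larva is not in the labels, so tank could not be modelled and larvae of 1 tank were treated as independent. Larvae at 0 h and at 24 h are 1 full cycle apart.

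Uncoupling proteins belong to the carrier family of the inner mitochondrial membrane. In mammals, UCP1 lets protons return to the matrix without making ATP, which releases heat in brown adipose tissue. Fish have no brown adipose tissue and carry ucp1 all the same, with transcript reported mainly in liver. UCP2 is found in many mammalian tissues and has been linked to the control of reactive oxygen species, while UCP3 is found mainly in mammalian skeletal muscle and has been linked to the handling of fatty acids. In a whole larva, a lower transcript level in each cell and a smaller share of the cells that carry the transcript cannot be told apart.

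Each of the 3 probes was printed on 1 spot of the array, was well above background on 53 of 53 arrays, and was never marked as an outlier by the scanner software. Processed intensities ran from 604 to 7876 fluorescence units for ucp1, from 356 to 16,260 for ucp2 and from 18.6 to 2289 for ucp3. The lowest ucp3 signals were thus of the order of the local background, which reached 41 units around its spot, whereas the lowest signals of ucp1 and ucp2 lay far above theirs (at most 40 and 43 units). All levels below are log2 intensities relative to the array's own 75th percentile. A level describes a probe and is compared only with levels of the same probe.

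All 3 transcripts had their highest mean at 24 h, the end of the dark period, and were low around lights off. At 24 h, ucp1 was 3.04-fold higher than at 12 h, ucp2 was 12.9-fold higher and ucp3 was 5.88-fold higher. The course between these points was not the same for the 3. The mean of ucp2 went from 5.09 to 4.55 over the first 6 h of light, fell between 6 h and 12 h, lay between 1.49 and 1.67 over the first 6 h of dark, and rose between 18 h and 24 h. The changes of ucp1 and ucp3 in those steep spans were smaller than that of ucp2. At 15 h, when the mean of ucp2 was at its lowest, ucp3 had a mean of -0.27 after -1.40 at 12 h, a difference that did not pass the test.

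**Figure D1:**
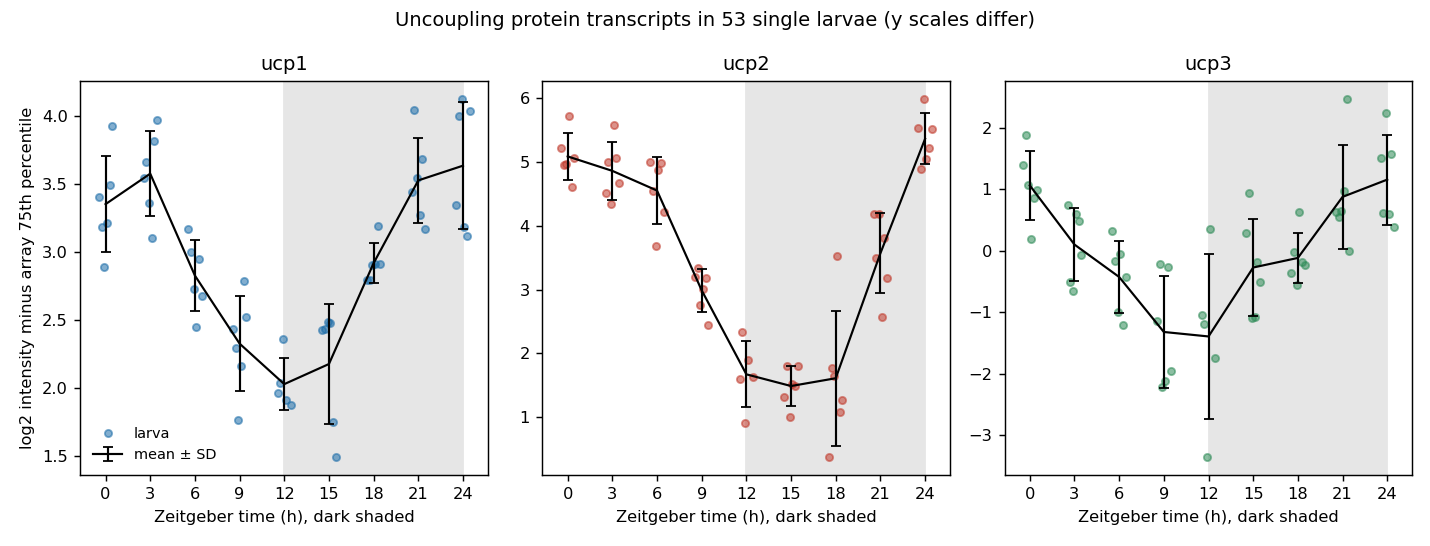
Level of ucp1, ucp2 and ucp3 (log2 intensity minus the array's 75th percentile) in each of the 53 larvae against zeitgeber time in h, with the dark period shaded. Points are single larvae, and lines and bars are the mean ± SD of 6 larvae (5 at 12 h). The 6 larvae at 24 h lie above the 5 larvae at 12 h for all 3 transcripts, by a gap of 0.03 log2 units for ucp3. In this comparison the larvae of 3.85% of all probes did not overlap.

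For ucp1, the carrier that gives mammals their brown fat heat, the larvae at 0 h had a lowest, median and highest level of 2.89, 3.31 and 3.93. At 3 h the same 3 values were 3.10, 3.60 and 3.97, and at 6 h they were 2.45, 2.84 and 3.16. Larvae at 3 h and 6 h overlapped only slightly. At 9 h the larvae lay between 1.76 and 2.78 around a median of 2.36. The 5 larvae at 12 h were at 1.96, 2.03, 2.36, 1.91 and 1.88, and those at 15 h lay between 1.49 and 2.48 with a median of 2.43. The larvae at 9 h, 12 h and 15 h overlapped each other, and no pair of these 3 times differed beyond the test. In the dark, the larvae at 18 h lay close together, from 2.79 to 3.19 with a median of 2.91, and all were above every larva at 12 h and at 15 h. In these comparisons the larvae of 1.99% and 1.05% of all probes did not overlap. Levels were 3.17, 3.49 and 4.04 at 21 h and 3.12, 3.67 and 4.12 at 24 h for the lowest, median and highest larva. These last 2 groups overlapped over most of their range.

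For ucp2, the widely expressed member in mammals, the lowest, median and highest larvae were at 4.61, 5.01 and 5.72 at 0 h. They were at 4.34, 4.84 and 5.59 at 3 h, and at 3.68, 4.71 and 5.01 at 6 h. The 3 groups of the early light period overlapped each other. At 9 h the larvae had dropped to between 2.44 and 3.35 (median 3.09), below every larva at 6 h. Between these times the larvae of 0.509% of all probes did not overlap. The 5 larvae at 12 h were at 1.60, 2.33, 0.90, 1.89 and 1.63, again without overlap with the group before them, as was so for 0.502% of all probes. The difference in means between 9 h and 12 h did not pass its test (limma, adjusted p = 0.233). Levels at 15 h were 1.00, 1.50 and 1.80 for the lowest, median and highest larva. At 18 h they spread from 0.38 to 3.53 around a median of 1.46, the widest spread of ucp2 at any time (SD 1.06, n = 6). The high value belonged to 1 larva, replicate 4, and the next highest larva at 18 h was at 1.77. At 21 h the larvae lay between 2.57 and 4.19 (median 3.65), and at 24 h between 4.89 and 5.99 (median 5.37). The 6 larvae at 24 h were above every larva sampled from 9 h to 21 h. Between 24 h and each of these times, the larvae of 0.646% to 4.56% of all probes did not overlap.

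For ucp3, the muscle member in mammals, measured levels were more spread within most sampling times. The lowest, median and highest larvae were at 0.19, 1.03 and 1.89 at 0 h, at -0.65, 0.21 and 0.75 at 3 h, and at -1.22, -0.30 and 0.32 at 6 h. Medians stepped down while each group overlapped the next. At 9 h the larvae ran from -2.21 to -0.22 with a median of -1.56. The 5 larvae at 12 h were at -1.04, -1.20, -3.36, 0.36 and -1.74, a spread of SD 1.34 (n = 5) that was the widest of the 3 transcripts at any time. The highest of these 12 h larvae reached the level of larvae from the high phase, and the lowest had the lowest ucp3 level of all 53 larvae. The spot of this lowest larva had a processed signal of 18.6 units beside a local background of 29 units. The SD at 12 h thus rests in part on a signal near background, and how much of it lies between larvae was not tested. In the dark, the lowest, median and highest larvae were at -1.09, -0.34 and 0.94 at 15 h and at -0.55, -0.20 and 0.64 at 18 h. They were at 0.00, 0.63 and 2.47 at 21 h and at 0.39, 1.07 and 2.25 at 24 h. Larvae at 24 h overlapped those at every other time except 6 h, 9 h and 12 h, where the larvae of 1.97%, 3.08% and 3.85% of all probes did not overlap.

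Whether the transcripts differed across the day was tested with a moderated F test over the 9 groups in limma, with Benjamini-Hochberg adjustment over all 13,940 probes. All 3 passed the threshold of 0.05, as did 15.7% of all probes. The adjusted p was 6.7e-11 for ucp1, 2.3e-17 for ucp2 and 7.6e-06 for ucp3. Because the 3 genes were picked with earlier results of these larvae known, their passing is a description and not independent evidence. Differences between sampling times held 79.2% of the variance of ucp1 among larvae, 89.7% of that of ucp2 and 60.7% of that of ucp3. The pooled SD within a sampling time was 0.33 for ucp1, 0.56 for ucp2 and 0.78 for ucp3, against a median of 0.43 over all probes. The range of the 9 means was 1.60 log2 units for ucp1, 3.88 for ucp2 and 2.56 for ucp3. Only 40 probes (0.287%) had a larger range than ucp2, while 720 (5.16%) had a larger range than ucp1 and 147 (1.05%) a larger one than ucp3.

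The difference between 24 h and 12 h was tested in the same model for each transcript, with adjustment over all probes. ucp1 rose by 1.60 ± 0.20 log2 units (SE, adjusted p = 8.5e-08), ucp2 by 3.69 ± 0.33 (adjusted p = 1.3e-11) and ucp3 by 2.56 ± 0.46 (adjusted p = 9.8e-05). The size of the ucp3 difference moved with the choices made, to 1.85 without the larvae of replicate number 3, 1.88 with normexp background correction and 3.11 without replicate number 4, and it passed in each. Of all probes, 3.87% were called higher at 24 h in this comparison. Arrays were hybridised on 7 slides that held at most 1 array of a sampling time, and 4 slides held both 12 h and 24 h. Within these slides the difference was positive for each transcript in 4 of 4, from 1.31 to 2.21 for ucp1, from 3.20 to 4.10 for ucp2 and from 1.89 to 3.98 for ucp3. Slides were scanned on 3 days, of which the first held 3 larvae of 24 h and 4 of 12 h. On that day alone, the mean differences were 1.76 for ucp1, 3.79 for ucp2 and 2.77 for ucp3. The second scan day held no 12 h larva. With slide as a block in limma, the differences over all larvae were 1.59, 3.69 and 2.55, and all 3 passed. Sampling times differed by up to 0.14 log2 units in the median over all probes, and centring each array on its median gave 1.61, 3.70 and 2.56.

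Levels at the start and the end of the sampled cycle were also set against each other. Between 0 h and 24 h the mean of ucp1 differed by 0.28 log2 units (95% interval -0.10 to 0.67), that of ucp2 by 0.28 (-0.36 to 0.91) and that of ucp3 by 0.09 (-0.79 to 0.98). No adjusted p in limma was below 0.958 for these 3, and 0% of all probes were called. The intervals reach as far as 0.67, 0.91 and 0.98, so the 2 ends of the cycle were not shown to be equal.

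**Figure D2:**
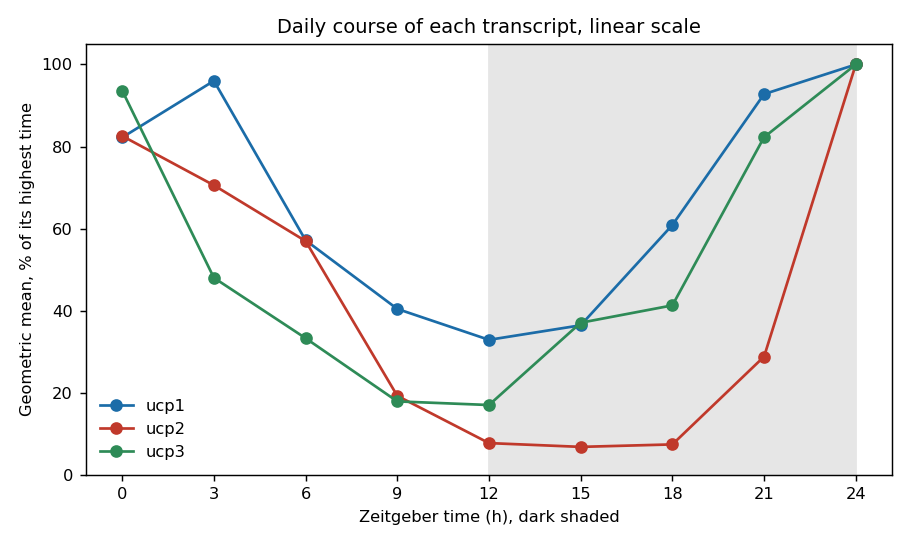
Mean level of each transcript on a linear scale (geometric mean of the larvae, as % of that transcript's highest sampling time) against zeitgeber time in h, with the dark period shaded. At 18 h ucp1 stood at 60.9% and ucp3 at 41.3% of their 24 h levels, while ucp2 stood at 7.40%.

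Over all 36 pairs of sampling times, 20 pairs were called for ucp1, 24 for ucp2 and 10 for ucp3 in limma at an adjusted p under 0.05. Over all probes, 3.58% of the combinations of probe and pair were called. Larvae of the 2 times did not overlap in 17 pairs for ucp1, 23 for ucp2 and 5 for ucp3, against 2.56% of all combinations. Counted along the sampled day, the closest called pairs of ucp3 were 9 h apart. From 0 h to 9 h, for example, it fell by 2.39 (adjusted p = 1.6e-04) while 3.08% of all probes were called lower. In clock time 6 h and 24 h lie closer, and ucp3 was called higher at 24 h by 1.59 (limma, adjusted p = 0.0343), as were 1.32% of all probes. The count for ucp3 was the least stable of the 3, with 6 pairs when the larvae of replicate number 1, 3, 5 or 6, or slides 3 and 4, were left out, and 16 pairs with slide as a block.

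Steps of 3 h showed where each course was steepest. ucp2 fell between 6 h and 9 h by 1.57 ± 0.31 log2 units (SE), a 2.96-fold change (adjusted p = 0.0091), in a step in which 0.0789% of all probes were called lower. It rose between 18 h and 21 h by 1.96 (3.89-fold, adjusted p = 1.4e-04) and again between 21 h and 24 h by 1.80 (3.47-fold, adjusted p = 7.5e-04). In these 2 steps, 0.445% and 0.187% of all probes were called higher. Larvae at 18 h and 21 h overlapped through the single high larva at 18 h. Those at 21 h and 24 h did not overlap, as was so for 0.646% of all probes. The call from 18 h to 21 h was lost when only the arrays of these 2 times were fitted (adjusted p = 0.210). The difference of ucp2 between 9 h and 12 h was -1.32 and did not pass (adjusted p = 0.233), although its larvae did not overlap in that step, in which the larvae of 0.502% of all probes did not overlap. Without the high larva at 18 h, an omission chosen after seeing the data, it passed (adjusted p = 0.0375). The call of the 6 h to 9 h step was lost when the larvae of replicate number 1, 2, 5 or 6 were left out (adjusted p of up to 0.0899) and without slides 3 and 4 (0.207), while the difference stayed between -1.70 and -1.50 in all 19 alternatives.

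ucp1 had 1 step of 3 h past the threshold, between 15 h and 18 h, where it rose by 0.74 ± 0.19 (SE, 1.67-fold, adjusted p = 0.0487). In that step 0.395% of all probes were called higher. The larvae of ucp1 did not overlap, as was so for 1.05% of all probes. The call was lost in 12 of 19 alternatives, among them the omission of any replicate number and the deposited table, with adjusted p values of up to 0.379 and a rise of between 0.26 (with normexp) and 0.82. No step of 3 h passed for ucp3, and its largest was +1.12 between 12 h and 15 h (95% interval 0.20 to 2.05, adjusted p = 0.620).

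When the 9 means of each transcript were ordered by level, no pair of neighbours in the order differed beyond the test. For ucp1 the order from the highest was 24 h, 3 h, 21 h, 0 h, 18 h, 6 h, 9 h, 15 h and 12 h. For ucp2 it was 24 h, 0 h, 3 h, 6 h, 21 h, 9 h, 12 h, 18 h and 15 h, and its closest approach to the threshold lay between 6 h and 21 h (0.98, adjusted p = 0.0507). For ucp3 it was 24 h, 0 h, 21 h, 3 h, 18 h, 15 h, 6 h, 9 h and 12 h. The 3 orders shared their first place, and 21 h was in place 3 for ucp1 and ucp3 and in place 5 for ucp2.

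The timing of the 3 transcripts was measured with cosine curves of a 24 h period that limma fitted to all probes. All 3 passed this test (adjusted p = 3.8e-14 for ucp1, 1.3e-20 for ucp2 and 1.0e-08 for ucp3), as did 29.6% of all probes. The fitted peak fell at 22.68 ± 0.49 h (SE) for ucp3, at 0.06 ± 0.33 h for ucp1 and at 2.43 ± 0.21 h for ucp2. The fitted peak of ucp2 was 2.37 h later than that of ucp1 (95% interval 1.54 to 3.20), and the fitted peak of ucp3 was 3.75 h earlier than that of ucp2 (2.77 to 4.73). The fitted peak of ucp3 was 1.38 h earlier than that of ucp1, with an interval that came close to 0 (0.15 to 2.60). These lags are between whole curves and not between the times of the highest mean, which was 24 h for all 3. That mean did not differ beyond the test from the next highest in any of the 3. The mean of ucp2 was 5.37 at 24 h, 5.09 at 0 h and 4.86 at 3 h, while that of ucp1 was 3.63 at 24 h and 3.57 at 3 h. Amplitudes, from the middle of the curve to its peak, were 0.79 ± 0.06 for ucp1, 2.07 ± 0.11 for ucp2 and 1.19 ± 0.14 for ucp3 (log2, SE). The cosine held 95.3% of the variance between the means of ucp1, 96.6% for ucp2 and 93.7% for ucp3.

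Whether 2 transcripts changed unequally over the same 6 h was tested on their difference within each larva, which does not depend on how an array was scaled. All 3 pairs were compared over 4 spans of 6 h, with exact 2-sided permutation tests over larvae and adjustment over the 12 tests. The smallest exact p these group sizes allow is 0.00216, or 0.00433 where the 5 larvae of 12 h take part. Of the 12 tests 4 passed, and all 4 set the ucp2 clone C2_60770 apart from ucp1 or ucp3. The further ucp2 clone was not in these tests, so they do not show that ucp2 as a whole differs from the others. The study lists a much smaller fall towards lights off for that clone than for the clone analysed here.

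Between 6 h and 12 h, ucp2 changed by -2.88 and ucp1 by -0.80, a difference between them of -2.09 (exact permutation test, adjusted p = 0.0130). In the same span ucp3 changed by -0.97, or 1.91 less in size than ucp2 (exact permutation test, adjusted p = 0.0130). Between 18 h and 24 h the order was the same in the other direction. ucp2 changed by 3.76 and ucp1 by 0.72, a difference of 3.04, and ucp3 changed by 1.28, a difference from ucp2 of -2.48 (exact permutation tests, both adjusted p = 0.0130). Late light and late dark therefore held the largest changes of ucp2 over these 4 spans, a fall of 7.38-fold (limma, adjusted p = 4.2e-08) and a rise of 13.5-fold (adjusted p = 3.7e-12). Of all probes, 1.26% were called lower in the first of these spans and 1.81% higher in the second.

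**Figure D3:**
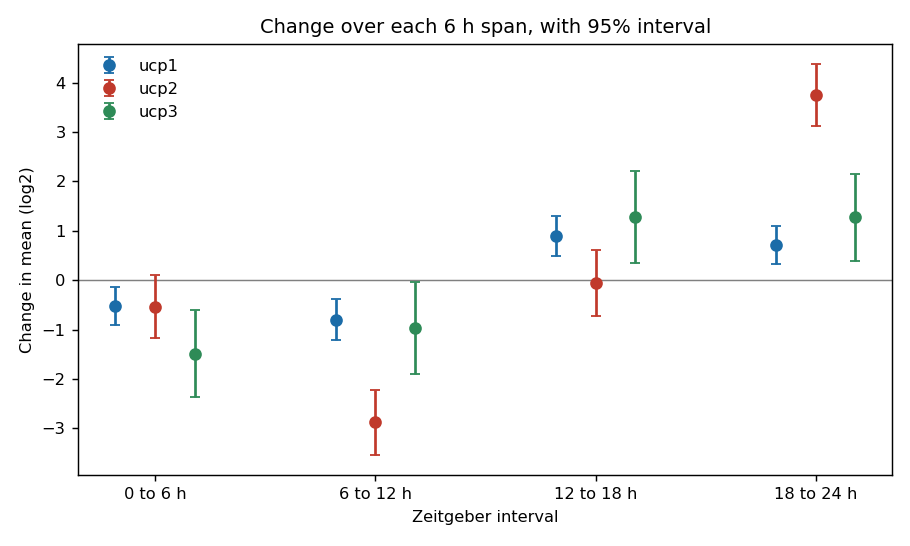
Change in the mean level (log2) of each transcript over each span of 6 h, with 95% intervals from the limma model of 9 groups. ucp2 changed by -2.88 from 6 h to 12 h and by 3.76 from 18 h to 24 h, and by -0.54 and -0.06 in the other spans, whereas the changes of ucp1 and ucp3 were between 0.52 and 1.49 in size in every span.

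In the first 6 h of light and the first 6 h of dark the tests between transcripts did not pass. From 0 h to 6 h the mean of ucp3 changed by -1.49, that of ucp1 by -0.52 and that of ucp2 by -0.54. The adjusted p for ucp3 was 0.0779 against both (exact permutation test), and 0.0272 against both when larvae of replicate number 4 were left out. ucp1 and ucp2 differed in this span by 0.01 in size. From 12 h to 18 h ucp3 changed by 1.28, ucp1 by 0.89 and ucp2 by -0.06, and the difference between ucp3 and ucp2 was 1.34 (exact permutation test, adjusted p = 0.0779). Without the high ucp2 larva at 18 h this difference was 1.57 and that of ucp2 from ucp1 was -1.33 (exact permutation tests, both adjusted p = 0.0476). That omission was chosen after seeing the data and lowers the ucp2 mean at 18 h, so no conclusion is drawn from these p-values.

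Single larvae were then compared with the mean of their own sampling time. Deviations of ucp1 had a Pearson r of 0.02 and a Spearman rho of 0.03 with those of ucp2 over 53 larvae, and an r and rho of 0.04 with those of ucp3. For these 2 pairs, permutation within sampling times gave an adjusted p of 0.891 for r and of 0.819 for rho. Over the alternatives, the r of ucp1 and ucp2 ran from -0.07 with quantile normalization to 0.42 with normexp (permutation test, adjusted p = 0.0662). Deviations of ucp2 and ucp3 went together, with r = 0.40 (permutation test, p = 0.00206, adjusted over 3 pairs 0.00618) and rho = 0.41 (p = 0.00472, adjusted 0.0142). Without the 2 larvae farthest from the median in ucp2, r was 0.39. Of the 53 larvae, 16 were above and 18 below their group mean in both transcripts.

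Part of these deviations was shared by arrays of 1 slide. Arrays on slide 3 had a mean deviation of -0.45 for ucp2 and -0.73 for ucp3, and those on slide 4 of 0.40 and 0.17. For ucp3 the other slides ran from -0.50 on slide 7 to 0.43 on slide 2. With slide means removed as well, r was 0.27 (permutation test, p = 0.0639, adjusted 0.192) and rho was 0.23. Within the 7 slides, r ran from 0.07 to 0.69 and was above 0 in 7 of 7, with 6 to 8 larvae a slide. Leaving out the larvae of replicate number 3, most of them on slide 3, gave r = 0.24 (adjusted p = 0.264, permutation test). The larva at 12 h with the lowest ucp3, at -3.36, was one of these, and was also the lowest of its group in ucp2 at 0.90, while in ucp1 it was the highest at 2.36.

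**Figure D4:**
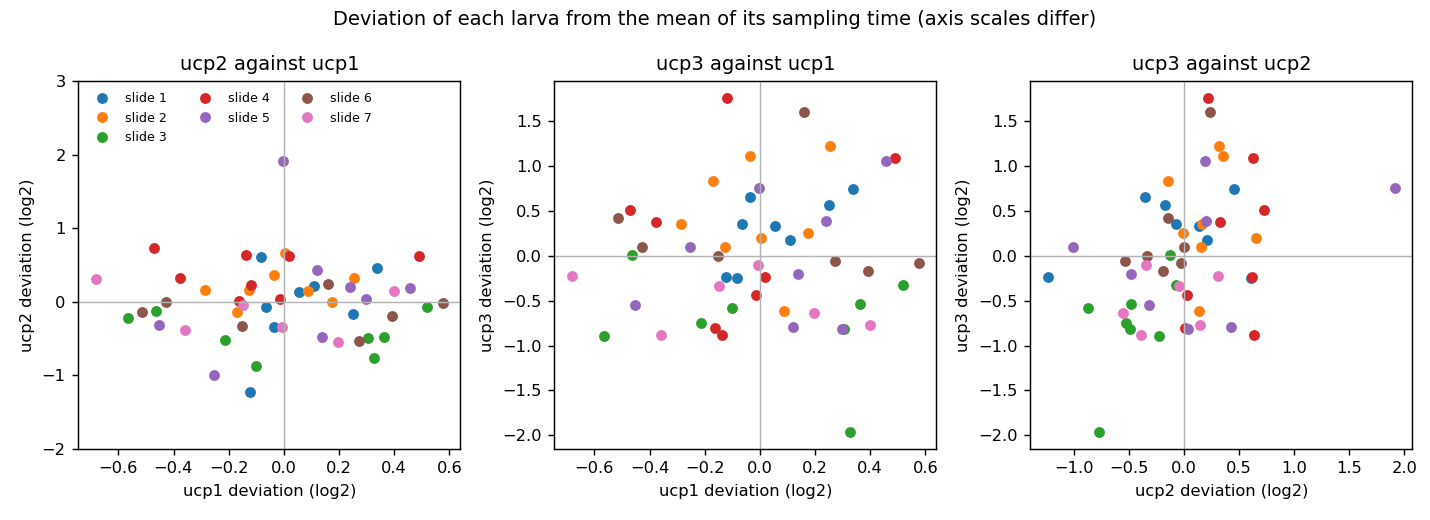
Deviation of each of the 53 larvae from the mean of its sampling time (log2) in one transcript against another, coloured by the slide of its array. ucp2 and ucp3 have r = 0.40 over all larvae, with most larvae of slide 3 at the lower left, while ucp1 has r = 0.02 with ucp2 and 0.04 with ucp3.

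The probes whose 9 means followed each transcript most closely were taken from 11,374 probes that were well above background on all arrays of at least 1 sampling time. These are likenesses of course over 9 shared means, given without a test. For ucp1 the closest was C2_4364, alpha-crystallin B chain, a small heat shock protein, with r = 0.984 over the means and 0.881 over the 53 larvae and a range of means of 4.76 log2 units. Next came C2_50960, a regulatory cofactor of sodium-proton exchange (NHE-RF4), with r = 0.982. The other probes among the 5 closest were C2_9267, C2_1367 and C3_c27342, which no table used here describes, with r of 0.979 each. C2_9267 had a range of 0.37 and did not pass the F test (adjusted p = 0.572).

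For ucp2 the closest probe was C2_9237 (r = 0.990 over the means, 0.903 over larvae), which has no description here, followed by C2_59623 (0.980). The third was C2_26959, a mitochondrial MOSC domain protein, which belongs to a family of molybdenum enzymes of the mitochondrion, with r = 0.977 and a range of 1.62. C2_17550 (0.977) and C2_5105 (0.976) completed the 5, and of these C2_17550 did not pass the F test (adjusted p = 0.419). For ucp3 the closest were C2_2014 (r = 0.990), which has no description here, and C2_2559, Tob1, a protein that restrains cell proliferation in mammals (0.987, range 1.98). C2_35102 (0.979, F test adjusted p = 0.0547), C3_c58173 (0.978) and C2_2657, a translation repressor like the binding protein 3 of initiation factor 4E (0.978, range 1.78), followed. The members were less alike than these, which the choice of the closest probes favoured in advance. Over the 9 means, r was 0.87 between ucp1 and ucp3, 0.78 between ucp1 and ucp2 and 0.63 between ucp2 and ucp3. Of the 11,374 probes, 289 to 1310 were closer to a member than another member was. For example, 715 were closer to ucp1 than ucp2 was.

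Other transcripts, mitochondrial and not, were described from clone codes that the study selected on these same larvae, so that their high counts are not independent evidence. Of these 26 transcripts in 5 groups, 25 passed the F test, against 15.7% of all probes. The groups were mitochondrial carriers, other mitochondrial proteins, antioxidant defence, thyroid hormone and retinoid X receptor activation, and the core clock. Other mitochondrial carriers were described only where a clone code was given, which was so for 3, and carriers named by the study without a code were not analysed here. These 3 passed, although the call of slc25a25 was lost with normexp (adjusted p = 0.223). The carrier slc25a36, which moves pyrimidine nucleotides in mammals, had its highest mean at 9 h and its lowest at 0 h (6.37-fold, adjusted p = 1.5e-10). The kidney mitochondrial carrier slc25a30, in mammals a close relative of the uncoupling proteins, was highest at 12 h, when ucp1 and ucp3 were lowest (3.25-fold, adjusted p = 5.7e-11). The calcium-binding carrier slc25a25, an ATP-magnesium and phosphate carrier in mammals, had its highest mean at 3 h, with 48 of its 53 arrays well above background.

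Of 9 other mitochondrial proteins 8 passed, but only 4 did so with normexp, and 4 without slides 3 and 4. The call of ppm1k was lost in both (adjusted p = 0.0611 and 0.247). Among the 9, 7 had their highest mean between 21 h and 3 h, including adrenodoxin, which did not pass. The share of all probes with a highest mean at these times was not counted, so such counts only describe the listed transcripts. Threonine dehydrogenase (tdh), which breaks down threonine, peaked at 24 h and was lowest at 15 h (a range of 3.00 log2 units), and protein phosphatase ppm1k had its fitted peak at 23.69 ± 0.63 h (SE), between those of ucp3 and ucp1. The coenzyme Q-binding protein coq10b went the other way, highest at 12 h and lowest at 0 h (4.15-fold, adjusted p = 3.7e-14). Adrenodoxin, an electron carrier of steroid synthesis, did not pass (range 0.65, adjusted p = 0.0501). All 6 transcripts of antioxidant defence passed, 3 with a highest mean between 21 h and 3 h and 3 at 6 h or 12 h. Only 4 passed with normexp, without replicate number 4 and without slides 3 and 4, and 5 without number 6. The calls lost were of glutathione S-transferase A and the heme oxygenases hmox and hmox2. Among the 6, catalase (cat), which breaks down hydrogen peroxide, was highest at 12 h (2.09-fold over 21 h, adjusted p = 3.6e-05), and the regulator nrf2 was highest at 0 h (1.61-fold over 15 h, adjusted p = 0.0012). Microsomal glutathione S-transferase 2 (mgst2) had the largest range of the group, 2.77 log2 units between 3 h and 18 h.

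The study grouped the uncoupling proteins with genes of thyroid hormone and retinoid X receptor activation. The transcript of that group matched here by code, a chain of collagen VI (col6a3-like), passed, with its highest mean at 24 h and its lowest at 12 h as for ucp1 and ucp3 (adjusted p = 0.0185), though 1 of the 5 arrays at 12 h was not well above background. This call was lost without replicate number 2, 3, 4 or 5, without slides 3 and 4 and with normexp (adjusted p of 0.0807 to 0.432). All 7 core clock transcripts passed, but only cry1 and cry2 did so with normexp, where per1, per2, per3, bmal1 and clock had adjusted p values of 0.318 to 0.432. The call of per2 was also lost with the median signal minus background (0.178). Their fitted peaks were at 23.50 ± 0.28 h (SE) for per3, at 3.05 ± 0.28 h for cry2, at 3.50 ± 0.24 h for cry1 and at 4.54 ± 0.39 h for per1, all repressors of the clock, and at 10.02 ± 0.45 h for bmal1 and 10.81 ± 0.48 h for clock, its activators. The fitted peaks of ucp3 and ucp1 lay before and after that of per3, and the peak of ucp2 lay between those of per3 and cry2. Differences between these peaks were not tested. No fold is given for per3, per2, bmal1 and clock, which were well above background on only 31, 5, 34 and 40 of 53 arrays. The fitted peaks of these transcripts, for per2 at 3.00 ± 0.67 h (SE), thus rest in part on signals not well above background. At 12 h, per3 was well above background on 0 of 5 arrays.

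**Figure D5:**
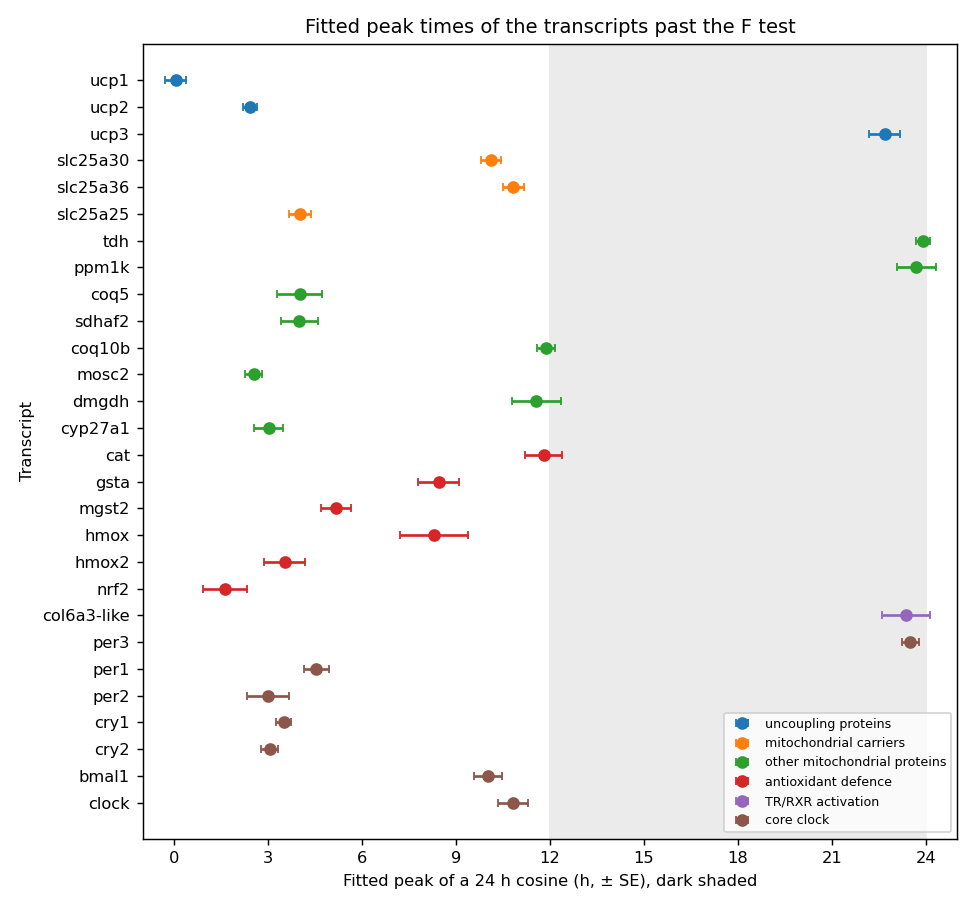
Fitted peak of a 24 h cosine in h of zeitgeber time (± SE) for the 3 uncoupling proteins and the 25 listed transcripts past the F test, coloured by group, with the dark period shaded. The uncoupling proteins have fitted peaks at 22.68 h, 0.06 h and 2.43 h, and the carriers slc25a25, slc25a30 and slc25a36 at 4.01 h, 10.11 h and 10.83 h.

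On single arrays, 73.8% to 94.1% of probes passed the scanner's test for signal above background, and no spot was saturated (a count of 0). The 75th percentile of intensity ran from 141 to 504, and its median by sampling time from 249 at 12 h to 370 at 18 h. Each array was also set against the means of the sampling times, over the probes past the F test without the 3 members. These probes were selected on the same time labels, so a match with the own time was favoured in advance. The larva of each array was closest to the mean of its own sampling time in 42 of 53 cases and to that of a time 3 h away in 8. The other 3 were larvae of 24 h that were closest to 0 h, and of the 6 larvae of 24 h only 1 was closest to its own time. Replicate 4 at 3 h was farthest from its label (r = 0.11 with its own time and 0.64 with 0 h). Without this larva, and without slides 3 and 4, which had the lowest shares of probes above background, all 3 transcripts still passed the F test, the cosine test and the comparison of 24 h with 12 h. The part of array signal in the results was not tested.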

How the data were processed

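Each of 53 larvae gave 1 single-colour array, and groups were taken from the sampling time in the labels, which give other numbers of tanks and larvae than the methods do. The deposited intensity values are spot signals that Agilent Feature Extraction 11.5.1.1 had corrected for background. The log2 values deposited by the authors as a table were shifted by the 75th percentile and centred on a median. Once each probe was centred on its own median, the values computed here differed from them by a median of 0.00555. Spot flags deposited by the authors were used to leave out 536 control spots per array and 974 outlier spots. Log2 intensities minus the 75th percentile of each array were averaged per probe and tested in limma 3.58.1 (R 4.3.3) with 9 groups and Benjamini-Hochberg adjustment over 13,940 probes (44 residual and 2.95 prior degrees of freedom). Correlations used 100000 permutations within sampling times. The number of arrays limits the precision, and the procedures were tested on simulated data.

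Members and lists were chosen with earlier results of these data known. Named are the 3 members, listed clones and, for each member, the 5 probes of most similar course, with descriptions given by the study. Alternatives covered background correction (subtraction of the local background from the median signal, with values under 1 set to 1; normexp on the median signal, offset 50), normalization, filters, blocks and omission of larvae. Omitting the larva of replicate 4 at 18 h or at 3 h, or slides 3 and 4, was chosen after seeing the data. Replicate numbers were not treated as pairs. No sequences or coordinates were used here. Figures were drawn with matplotlib 3.10.9.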

Additional observations from a re-analysis of the deposited data

Results flagged for a closer look

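In the 27 groups of larvae formed by the 3 transcripts and 9 sampling times, the highest larva stood apart in 1, where chance flags about 1 in 20 groups. This was ucp1 at 18 h, whose highest larva (replicate 5) was at 3.19 while the next was at 2.91 and the lowest at 2.79. The other larvae of that group lay so close together (SD 0.14 for the 6 larvae, the smallest of ucp1) that a gap of this size met the criterion. The larva of replicate 4 at 18 h, with a ucp2 level of 3.53 against 1.77 for the next, did not meet it, nor did the larva at 12 h with the lowest ucp3.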

How the results depend on the processing

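All 3 transcripts passed the F test, the cosine test and the comparison of 24 h with 12 h in every alternative run. Over these alternatives, the rise from 12 h to 24 h lay between 1.46 and 1.71 for ucp1, 3.38 and 3.95 for ucp2, and 1.85 and 3.11 for ucp3. With normexp, 931 probes passed the F test, 1560 the cosine test and 12 of the 26 listed transcripts the F test, against 2194, 4133 and 25 as reported. Without slides 3 and 4 the counts were 942 and 2612, and 0 of the 12 differences between transcripts over 6 h passed, where the smallest exact p left was 0.0159 to 0.0571. The 4 called differences kept their direction there. Leaving out each replicate number, or the larva of replicate 4 at 18 h or 3 h, gave 1440 to 2199 probes past the F test (the fewest without number 3), 4 to 7 differences between transcripts (7 without number 4) and 0 to 1 correlations. The correlation of ucp2 and ucp3 was called in 0 of 3 pairs also with normexp (r = 0.25), with slide as a block (r = 0.27) and without slides 3 and 4 (r = 0.32). The fitted peak of ucp1 moved to 0.65 h and that of ucp2 to 2.67 h without slides 3 and 4. Slide as a block gave 4072 probes past the F test. Nothing in the labels says that a replicate number pairs larvae, but the numbers followed the slides in part: of 208 pairs with the same replicate number, 114 shared a slide, and 119 of the 208 had a correlation of deviations over 0.1 (median 0.13), and the fit with a replicate block gave 3943 probes past the F test and left the calls of the 3 transcripts by the F test, the cosine test and 24 h against 12 h as they were. A sign turned under 1 or more alternatives in 10 results, and none of these 10 passed its test as reported or under the alternative that turned it. For 18 h minus 15 h, ucp2 gave -0.022 with slide as a block. The r of ucp1 with ucp2 and with ucp3 gave -0.067 and -0.049 with quantile normalization. The difference of ucp2 from ucp1 between 0 h and 6 h gave 0.0079 with the median signal minus background and 0.28 without slides 3 and 4. That of ucp3 from ucp1 gave, with normexp, 0.20 from 6 h to 12 h and -0.12 from 18 h to 24 h, and without slides 3 and 4 it gave 0.035 from 6 h to 12 h. Leaving out 1 replicate number or larva gave -0.67 to 0.24 for ucp3 between 9 h and 12 h, -0.26 to 0.33 for ucp2 and -0.16 to 0.38 for ucp3 between 15 h and 18 h, and -0.043 to 0.24 for ucp1 between 21 h and 24 h. The r of ucp1 ran from -0.035 to 0.071 with ucp2 and from -0.0034 to 0.11 with ucp3. The difference of ucp2 from ucp1 ran from -0.20 to 0.21 between 0 h and 6 h, and that of ucp3 from ucp1 from -0.49 to 0.31 between 6 h and 12 h and from -0.097 to 0.71 between 12 h and 18 h. The causes of these changes were not tested. The lowest ucp3 signals, near the local background, limit what can be said of its low phase.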
